A study of Nicotiana tabacum with 21 samples.

Results

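The auxin response factor (ARF) family was represented by 49 transcripts among the 69491 of the tobacco reference set (Nitab4.5), and these are the transcripts that the study assigned to its ARF class. Members are named here by their Nitab4.5 identifiers without version, and the figures leave out the prefix too. Transcript Nitab4.5_0001988g0030 is NtARF5S, the only member to which the study gave a gene name. The other 48 members carry no product name in the sources used here, and no role is given to them individually. The members were between 603 and 3635 bases long, with a median of 2196 bases.

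ARFs are transcription factors that bind auxin response elements in the promoters of auxin-regulated genes, and some activate while others repress transcription, as is known best from Arabidopsis. AUX/IAA proteins bind ARFs and hold target genes silent. Auxin brings AUX/IAA proteins to the TIR1/AFB receptors, after which they are degraded and the ARFs are released. In Arabidopsis, ARF5 (MONOPTEROS) is an activator that is needed for the embryonic root and for vascular development.

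The study asked how tobacco suspension cells come to proliferate without added auxin, which is called habituation. RNA-seq was made from auxin-habituated and auxin-dependent lines, with 3 libraries in each of 7 groups. BY-2H (stationary and exponential cells) was grown without auxin in Murashige and Skoog medium, and its reference line BY-2, cultivar Bright Yellow 2, was grown with auxin and analysed here in the stationary phase alone. VBI-2 (stationary and exponential cells) was grown in modified Heller medium without auxin, and its reference line VBI-0, cultivar Virginia Bright Italia, was grown in the same type of medium with 2,4-D and NAA, again with stationary and exponential cells. The labels place exponential cells at day 3 and stationary cells at day 10. The text of the study gives a younger age for stationary BY-2 alone. All lines were kept in the dark and shaken. The study calls its replicates biological, but the labels do not say whether they came from separate cultures, and p-values then measure the spread between these libraries, which may be technical. The auxin supply changed together with the line in both pairs. BY-2H was sequenced by Novogene as read pairs and all other lines by GATC Biotech as shorter single reads. In the BY pair, the line thus cannot be told apart from auxin supply, the stated culture age, sequencing company, read length and read pairing. The libraries were made from whole cultures, in which fewer cells of a type and less RNA per cell cannot be told apart.

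Libraries held between 10545447 and 22564711 estimated reads. Stationary BY-2 stood apart by its spread. The SD of log2(TPM + 0.5) between its replicates had a median of 0.36 over the members, against 0.12 to 0.16 in the other 6 groups. TPM is the length-scaled abundance unit of Salmon, in which members can be compared with each other within a library. Of the mRNAs that the study used as references in RT-qPCR, the aminopeptidase-like transcript lay between 46.9 and 74.8 TPM in the group means, whereas elongation factor 1a lay between 418 and 1366 TPM with its highest means in VBI-0.

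Nearly the whole family was transcribed in these cells. Of the 49 members, 48 exceeded a mean of 0.5 TPM in at least 1 group, and 35 did so in all 7 groups (71.4%, against 37.9% of all transcripts and 52.7% of the 49980 detected transcripts). The exception, Nitab4.5_0004801g0040, is the shortest member and had no reads in any of the 21 libraries. Where the lowest group mean was above 0 TPM, the highest and lowest means differed more than 10-fold for 17 members and less than 2-fold for 2. The median of this ratio was 6.24. No ratio was formed for Nitab4.5_0008892g0020, Nitab4.5_0004188g0050 and Nitab4.5_0012799g0010, whose lowest mean was 0 TPM. Their highest means were 29.5, 3.22 and 2.40 TPM. The highest mean lay in stationary BY-2H for 4 members, in exponential BY-2H for 5 and in BY-2 for 10. It lay in stationary VBI-2 for 3 members and exponential VBI-2 for 2, against 16 in stationary and 8 in exponential VBI-0. These counts and the ratios of means were not formed over all transcripts, so they do not set the family apart.

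The summed TPM of the family was lower in VBI-2 than in VBI-0. Between BY-2H and BY-2 it overlapped in TPM but not as a share of reads. It was 240, 248 and 226 TPM in stationary VBI-2, against 450, 475 and 456 TPM in stationary VBI-0. In exponential cells it was 257, 218 and 215 TPM in VBI-2, against 412, 350.6 and 398 TPM in VBI-0. The groups did not overlap in either phase, and the ratio of means was 0.52 ± 0.03 in stationary and 0.59 ± 0.08 in exponential cells (error from the SDs, n = 3 each). The sums were 301, 295 and 272 TPM in stationary BY-2H, against 300, 283 and 389 TPM in stationary BY-2, so the groups overlapped on this scale and replicate 3 of BY-2 was the highest library of the pair. As a share of all estimated reads, every stationary BY-2H library lay below every BY-2 library. The members took 10460 of 13755473, 9234 of 12209235 and 7352 of 10595226 reads in BY-2H. In BY-2 they took 12205 of 13039370, 9281 of 11364447 and 14261 of 13111763 reads. Exponential BY-2H was at 279, 288 and 282 TPM. No test was made of these sums.

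**Figure D1:**
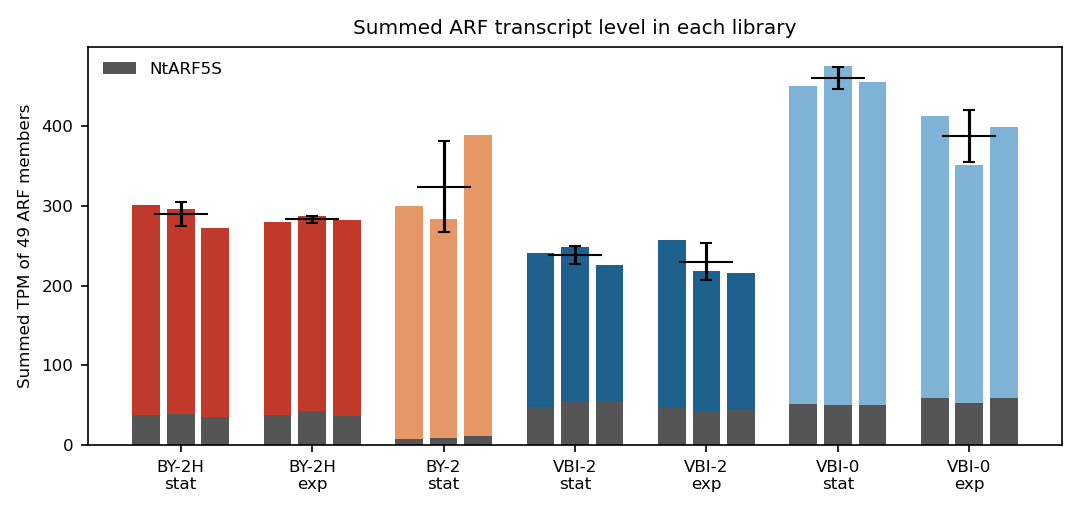
Summed TPM of the 49 ARF members (vertical axis) in each library, with NtARF5S as the dark lower part of each bar and the mean ± SD of each group of 3 as a black mark. VBI-2 libraries lie between 215 and 257 TPM, below the VBI-0 libraries at 350.6 to 475 TPM, and the dark part is smallest in BY-2.

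NtARF5S was the most abundant member in every library except those of BY-2. It reached 37.5, 38.3 and 35.6 TPM in stationary BY-2H, against 7.42, 8.18 and 11.8 TPM in stationary BY-2. Every BY-2H library was above every BY-2 library, and the difference passed the test (log2 fold change 1.80 ± 0.19, SE, adjusted p = 1.91e-05). It made up 12.8% of the summed level in BY-2H at this phase, against 2.80% in BY-2. In the VBI pair NtARF5S was high in both lines, with 47.3, 55.6 and 54.9 TPM in stationary VBI-2 and 52.0, 50.02 and 50.3 TPM in stationary VBI-0, which overlapped (log2 fold change -0.08 ± 0.08, adjusted p = 0.387). In exponential cells VBI-2 held 45.8, 41.5 and 44.0 TPM and VBI-0 59.4, 52.5 and 59.3 TPM. The log2 fold change of -0.43 ± 0.08 (adjusted p = 6.19e-05) lay below the limit of 1 required for a call. NtARF5S took 22.1% of the family's sum in stationary VBI-2 and 11.0% in stationary VBI-0, and in exponential cells 19.1% in VBI-2 and 14.8% in VBI-0. Exponential BY-2H, at 37.4, 42.9 and 36.9 TPM, overlapped stationary BY-2H (log2 fold change of stationary over exponential -0.07 ± 0.08, adjusted p = 0.689).

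Below NtARF5S, the leading members differed between the lines. In BY-2H, Nitab4.5_0008016g0010 came second, with 34.5, 30.4 and 23.8 TPM in stationary cells. The exponential cells of that line had 17.4, 19.0 and 18.2 TPM. No library of the other lines exceeded 5.78 TPM for this member, with 5.78, 2.73 and 4.28 TPM in BY-2, 3.398, 4.43 and 4.22 TPM in stationary and 5.56, 4.75 and 4.65 TPM in exponential VBI-2, and 2.97, 3.05 and 2.66 TPM in stationary and 2.63, 2.10 and 2.59 TPM in exponential VBI-0. The leading member of BY-2 was Nitab4.5_0009330g0010 in replicates 1 and 3 and Nitab4.5_0000824g0120 in replicate 2. The transcript Nitab4.5_0009330g0010 also came second in VBI-0 by its mean, and it was lower in both habituated lines than in their dependent lines. Its values were 11.5, 10.6 and 9.67 TPM in stationary BY-2H, against 34.3, 21.02 and 42.5 TPM in stationary BY-2. The stationary VBI cells had 9.57, 7.71 and 6.91 TPM in VBI-2, against 35.9, 36.0 and 34.5 TPM in VBI-0. Exponential cells gave 11.8, 6.92 and 7.89 TPM in VBI-2, against 37.6, 33.3 and 37.9 TPM in VBI-0, and 14.5, 14.7 and 12.7 TPM in BY-2H.

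In VBI-2, the second place was held by Nitab4.5_0007665g0050 and the next places by Nitab4.5_0001843g0120 and Nitab4.5_0006740g0010. The last of these, Nitab4.5_0006740g0010, measured 13.3, 16.1 and 15.7 TPM in stationary VBI-2, against 1.73, 1.77 and 1.35 TPM in stationary VBI-0. Stationary VBI-0 instead had Nitab4.5_0000315g0090 and Nitab4.5_0008892g0020 among its leading members. In that phase Nitab4.5_0000315g0090 measured 0.508, 0.675 and 0.431 TPM in VBI-2, against 30.6, 32.1 and 27.99 TPM in VBI-0. The members needed to reach 50% of the summed level numbered 9 in stationary cells of BY-2H and 10 in its exponential cells, 9 in BY-2, 7 in stationary and 8 in exponential VBI-2, and 8 in each phase of VBI-0. The median member stood at 2.12 TPM in stationary VBI-2 and 5.67 TPM in stationary VBI-0, and at 1.96 TPM in exponential VBI-2 and 4.01 TPM in exponential VBI-0. In BY-2H (stationary) the median member had 3.96 TPM, against 4.17 TPM in BY-2.

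**Figure D2:**
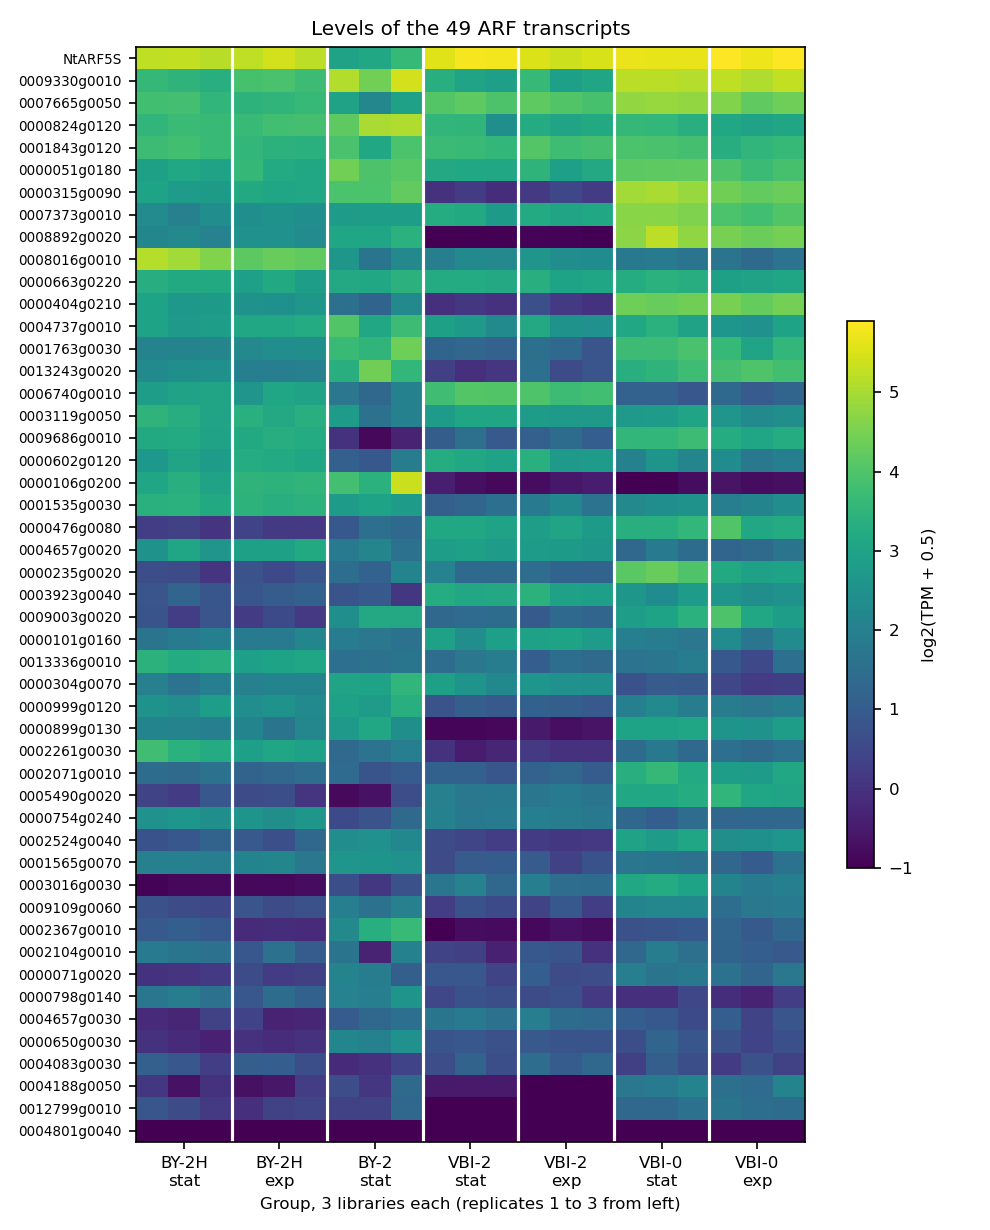
Levels of the 49 ARF transcripts (rows, ordered by their mean over all libraries) in the 21 libraries (columns, 3 per group), as log2(TPM + 0.5) on a colour scale from dark blue to yellow. NtARF5S fills the top row and is darkest in BY-2, Nitab4.5_0008892g0020 is dark in the VBI-2 columns alone, and Nitab4.5_0004801g0040 at the bottom is at 0 in every library.

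BY-2H and BY-2 were compared in stationary cells to find which members differed between the habituated and the dependent Bright Yellow line. A member was called where the adjusted p was at most 0.05 and the absolute log2 fold change at least 1. Of 48 members tested, 30 were called (62.5%, against 43.1% of all 47271 transcripts tested). By direction, 7 rose in BY-2H (14.6%, against 20.3%) and 23 fell (47.9%, against 22.8%). By the adjusted p alone, without that limit, 10 members were higher (against 24.9%) and 26 lower (against 27.4%). The median log2 fold change was -0.89 over the members and -0.06 over all transcripts tested. On the TPM scale the whole comparison was shifted. Over 31934 transcripts above 0.5 TPM in both groups, the log2 ratio of mean TPM exceeded the fold change from reads by a median of 0.35, and over 42 such members by 0.38. The sign differed for 4 of these members, none of them called. In the VBI pair this shift was 0.05 in stationary and 0.14 in exponential cells over all transcripts, and 0.14 and 0.09 over the members. The medians of the TPM ratio were -0.52 for these members and 0.26 for these transcripts. With limma on log2(TPM + 0.5), 11 of 48 members were called higher and 18 lower, against 11804 higher and 7426 lower of all 47271 transcripts tested. Of all calls, 61.4% were then higher instead of 47.1%.

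The member with the largest rise in BY-2H was Nitab4.5_0009686g0010. It had 8.66, 8.85 and 7.35 TPM in BY-2H, against 0.509, 0.0554 and 0.285 TPM in BY-2, a log2 fold change of 4.46 ± 0.49 (adjusted p = 2.82e-05). Its mean in BY-2H lay above the median member there (3.96 TPM), and in BY-2 it was nearly silent. Next came Nitab4.5_0008016g0010, whose values are given above (log2 fold change 2.30 ± 0.27, adjusted p = 4.88e-05), followed by NtARF5S. Together, NtARF5S and Nitab4.5_0008016g0010 were 53.3 TPM higher in BY-2H than in BY-2, 46.8% of the 113.9 TPM gained by 20 members with a higher mean. The other 4 members that rose were Nitab4.5_0013336g0010 (1.72), Nitab4.5_0002261g0030 (1.51), Nitab4.5_0000754g0240 (1.49) and Nitab4.5_0000602g0120 (1.22), with log2 fold changes in parentheses. In each of the 7 members that rose, all BY-2H libraries lay above all BY-2 libraries on the TPM scale. Such separation was seen for 13 of 48 members, against 37.6% of all transcripts tested, and the 7 were called from the same libraries.

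Among the members that fell in BY-2H, the largest change was that of Nitab4.5_0003016g0030, with 0.0266, 0.0592 and 0.0665 TPM in BY-2H, against 1.08, 0.595 and 1.14 TPM in BY-2 (log2 fold change -4.41 ± 0.56, adjusted p = 8.06e-05). This fold change rests on 5 estimated reads over the 3 BY-2H libraries, against 110 in BY-2. It was low in exponential BY-2H as well, at 0.0548, 0.0544 and 0.0860 TPM. The next member, Nitab4.5_0000650g0030, had 0.503, 0.390 and 0.276 TPM in BY-2H, against 3.98, 3.56 and 5.09 TPM in BY-2 (-3.74 ± 0.30, adjusted p = 3.81e-06). It was followed by Nitab4.5_0009003g0020 with 1.24, 0.702 and 1.26 TPM in BY-2H, against 4.93, 8.43 and 8.43 TPM in BY-2 (-3.04 ± 0.32, adjusted p = 2.23e-05). In these 3 members no BY-2H library reached the lowest BY-2 library, as in 24 of 48 members and 23.8% of all transcripts tested. Exponential BY-2H was low too, with 0.494, 0.411 and 0.491 TPM of Nitab4.5_0000650g0030 and 0.662, 0.974 and 0.605 TPM of Nitab4.5_0009003g0020. In the VBI pair Nitab4.5_0000650g0030 was called in neither phase, with 1.25, 1.33 and 1.15 TPM in stationary VBI-2 and 1.07, 1.88 and 1.305 TPM in stationary VBI-0, and 1.41, 1.23 and 1.22 TPM in exponential VBI-2 and 1.14, 0.804 and 1.12 TPM in exponential VBI-0. In contrast, Nitab4.5_0009003g0020 fell in VBI-2 in both phases, with 1.98, 2.15 and 2.23 TPM in stationary VBI-2, against 6.63, 7.46 and 10.2 TPM in stationary VBI-0. Its exponential levels were 1.43, 2.07 and 1.90 TPM in VBI-2, against 15.3, 8.09 and 6.77 TPM in VBI-0. By TPM, the largest loss was that of Nitab4.5_0009330g0010 (log2 fold change -2.03 ± 0.24), which was 22.0 TPM lower in BY-2H than in BY-2. The 28 members with a lower mean lost 148 TPM in all, and the 5 largest losses made up 48.4% of it.

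The ARF transcript Nitab4.5_0000824g0120 lies on the same scaffold as the auxin receptor gene NtTIR1T, and it fell in BY-2H. The study reports that the genomic region around NtTIR1T is multiplied in BY-2H. Whether that region reaches this ARF transcript was not tested. Stationary BY-2H had 11.1, 12.5 and 12.3 TPM, against 17.7, 32.0 and 33.5 TPM in stationary BY-2 (log2 fold change -1.49 ± 0.30, adjusted p = 0.00181). Exponential BY-2H had 12.3, 13.5 and 14.0 TPM. In the VBI pair, stationary cells had 11.2, 11.0 and 4.96 TPM in VBI-2 and 11.7, 11.4 and 9.51 TPM in VBI-0, and in exponential cells 8.96, 7.71 and 8.72 TPM in VBI-2 and 8.08, 7.33 and 7.95 TPM in VBI-0.

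In the BY pair, 3 calls depended on a single library. Without replicate 2 of BY-2, Nitab4.5_0000899g0130 and Nitab4.5_0007373g0010 were no longer called, and Nitab4.5_0007373g0010 was also lost without replicate 2 of BY-2H. The call of Nitab4.5_0004188g0050, with 19 reads in BY-2H against 63 in BY-2 and overlapping libraries, was kept in 5 of 14 alternatives. The counts ranged from 7 to 9 higher and from 21 to 23 lower when each library was left out in turn.

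**Figure D3:**
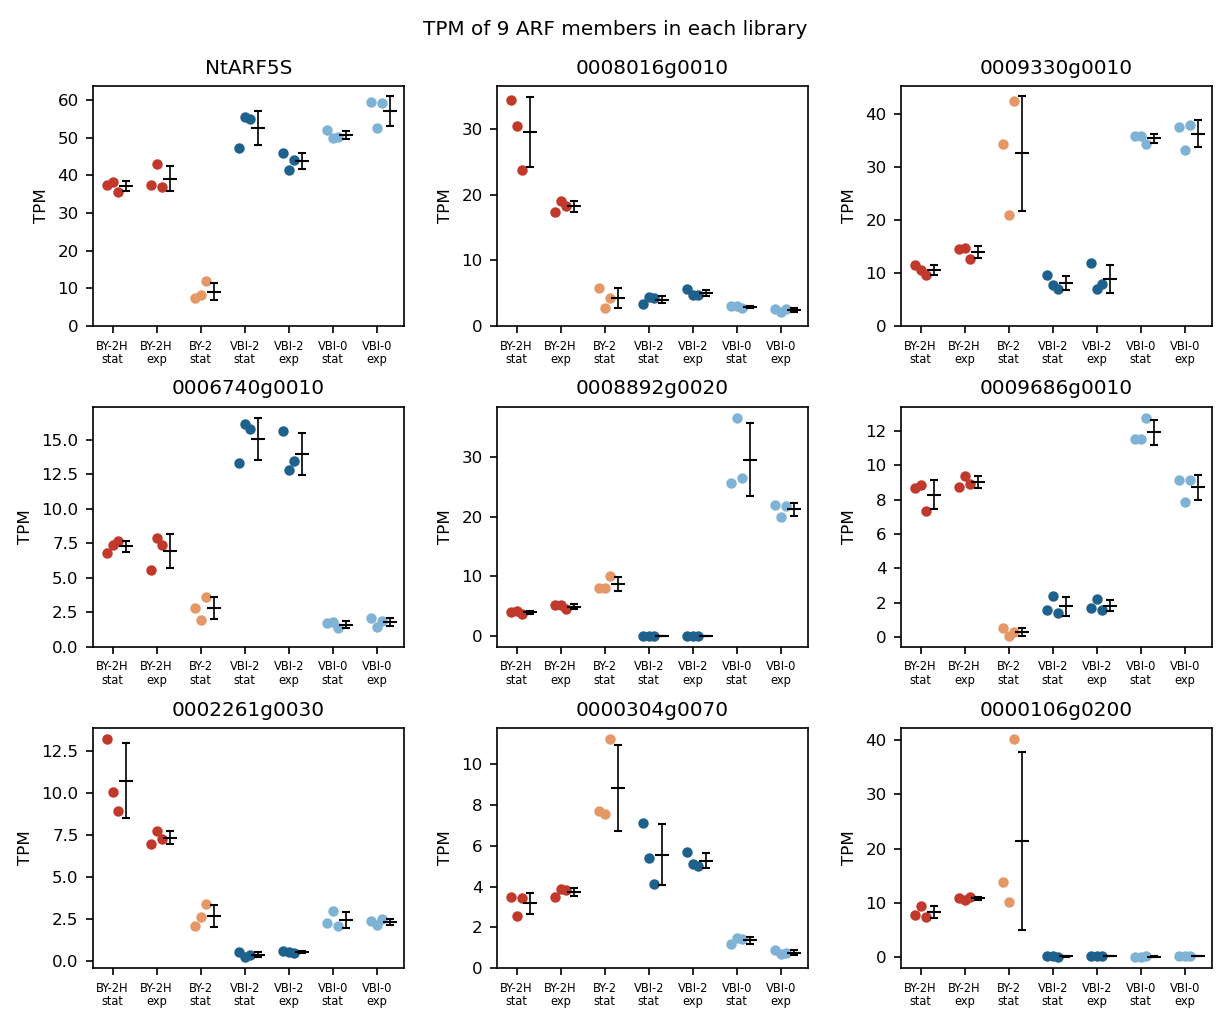
TPM of 9 ARF members (1 panel each, vertical axes from 0 or just below) in each library of the 7 groups, with points for the 3 replicates and a bar for mean ± SD. NtARF5S is low in BY-2 alone, Nitab4.5_0008016g0010 is high in BY-2H, Nitab4.5_0008892g0020 is at or near 0 in VBI-2, and replicate 3 of BY-2 stands apart for Nitab4.5_0000106g0200 at 40.3 TPM.

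VBI-2 was set against VBI-0 in stationary and in exponential cells, with the same question for the second pair. In stationary cells, 29 of 48 members were called (60.4%, against 39.9% of all 48440 transcripts tested), of which 3 rose in VBI-2 (6.25%, against 17.7%) and 26 fell (54.2%, against 22.3%). In exponential cells, 24 of 48 members were called, against 38.5% of all transcripts tested, and of these 4 rose (8.33%, against 17.1%) and 20 fell (41.7%, against 21.5%). The median log2 fold change of the members was -1.40 in stationary and -0.74 in exponential cells, against -0.03 and -0.02 over all transcripts tested. All 20 members that fell in exponential cells also fell in stationary cells, and the 3 that rose in stationary cells also rose in exponential cells. By the adjusted p alone, without the fold change limit, 8 members were higher (against 29.7% of all transcripts tested) and 31 lower (against 32.2%) in stationary VBI-2, and 12 were higher (against 29.2%) and 27 lower (against 31.6%) in exponential VBI-2. Both comparisons came from 1 fit of the 12 VBI libraries.

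Several members that were abundant in VBI-0 were nearly absent from VBI-2. The transcript Nitab4.5_0008892g0020 had 0, 0 and 0 TPM in stationary VBI-2, against 25.5, 36.5 and 26.5 TPM in stationary VBI-0. No read was assigned to it in the 3 stationary VBI-2 libraries, against 5284 reads in VBI-0. With a floor of 3 reads over the group it was at least 1800-fold lower in VBI-2. Its exponential levels were 0.0199, 0.0198 and 0 TPM in VBI-2, against 21.9, 19.97 and 21.7 TPM in VBI-0. Those are 2 reads in VBI-2 against 4588 in VBI-0, a ratio of 2045 (95% exact interval 566 to 16888, counting error only). In the BY pair the same member fell too, with 4.00, 4.24 and 3.65 TPM in stationary BY-2H, against 8.06, 8.07 and 10.06 TPM in BY-2 (log2 fold change -1.63 ± 0.18), and it was at 5.15, 5.15 and 4.49 TPM in exponential BY-2H.

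The transcript Nitab4.5_0012799g0010 had no reads in any of the 6 VBI-2 libraries. In VBI-0 it had 2.03, 1.99 and 2.50 TPM in stationary and 2.68, 2.31 and 2.21 TPM in exponential cells, so that it was at least 106.3-fold lower in stationary and at least 121-fold lower in exponential VBI-2. It was found in the Bright Yellow lines at 1.29, 0.997 and 0.637 TPM in stationary BY-2H and 0.759, 0.760 and 2.04 TPM in BY-2, and at 0.449, 0.760 and 0.862 TPM in exponential BY-2H. The bounds hold for reads as Salmon divided them between this transcript and Nitab4.5_0000754g0240. The sum of these transcripts, given below, fell far less. The weakly expressed Nitab4.5_0004188g0050 had 0.202, 0.206 and 0.201 TPM in stationary VBI-2, against 2.86, 3.06 and 3.75 TPM in stationary VBI-0 (log2 fold change -3.99 ± 0.39). In exponential VBI-2 it had no reads, against 2.45, 2.17 and 3.81 TPM in exponential VBI-0, which makes it at least 62.1-fold lower. In stationary cells of the BY pair it held 0.584, 0.131 and 0.506 TPM in BY-2H, against 1.06, 0.568 and 2.11 TPM in BY-2, and exponential BY-2H held 0.122, 0.186 and 0.701 TPM. Where VBI-2 had no reads, the bounds lie below the medians given above, which they leave unchanged.

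The members Nitab4.5_0000899g0130, Nitab4.5_0000315g0090 and Nitab4.5_0000404g0210 were reduced to levels below or near 1 TPM. In stationary cells Nitab4.5_0000899g0130 had 0.0452, 0.0427 and 0.0527 TPM in VBI-2, against 7.55, 7.48 and 7.79 TPM in VBI-0 (log2 fold change -7.52 ± 0.21, adjusted p = 9.86e-17). The log2 fold changes of Nitab4.5_0000315g0090 were -5.92 ± 0.15 in stationary and -4.82 ± 0.15 in exponential cells. In exponential cells Nitab4.5_0000315g0090 had 0.608, 0.899 and 0.647 TPM in VBI-2, against 20.9, 18.4 and 19.5 TPM in VBI-0, and in the Bright Yellow lines it was well expressed, at 7.50, 6.43 and 6.26 TPM in stationary BY-2H, 14.8, 14.9 and 18.5 TPM in BY-2 and 8.73, 7.99 and 8.30 TPM in exponential BY-2H. For Nitab4.5_0000404g0210 the log2 fold changes were -5.37 ± 0.17 in stationary and -4.80 ± 0.16 in exponential cells, with means of 0.514 TPM in VBI-2 and 20.03 TPM in VBI-0 in the stationary phase. In stationary cells, the 5 largest losses in TPM (Nitab4.5_0000315g0090, Nitab4.5_0008892g0020, Nitab4.5_0009330g0010, Nitab4.5_0000404g0210 and Nitab4.5_0007373g0010) came to 122 TPM, 46.9% of the 261 TPM lost by the 34 members with a lower mean in VBI-2.

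The largest rise in VBI-2 was that of Nitab4.5_0006740g0010 (log2 fold change 3.06 ± 0.14 in stationary cells, adjusted p = 9.11e-14). Exponential cells had 15.6, 12.8 and 13.5 TPM in VBI-2, against 2.07, 1.47 and 1.89 TPM in VBI-0 (2.81 ± 0.13). In the Bright Yellow lines Nitab4.5_0006740g0010 had 6.81, 7.37 and 7.63 TPM in stationary BY-2H, against 2.85, 1.97 and 3.60 TPM in BY-2, a log2 fold change of 0.83 ± 0.24 that stayed below the limit. It had 5.54, 7.91 and 7.36 TPM in exponential BY-2H. Next was Nitab4.5_0000304g0070, with 7.12, 5.42 and 4.14 TPM in stationary VBI-2, against 1.18, 1.47 and 1.42 TPM in stationary VBI-0 (1.88 ± 0.18). In exponential cells the same member had 5.68, 5.09 and 5.02 TPM in VBI-2, against 0.891, 0.660 and 0.719 TPM in VBI-0 (2.73 ± 0.19). No VBI-2 library of either phase overlapped those of VBI-0 for these members. All VBI-2 libraries lay above all VBI-0 libraries for 9 of 48 members in stationary cells (against 32.4% of all transcripts tested). In exponential cells this held for 13 of 48 members (against 34.6%).

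The neighbouring transcripts Nitab4.5_0004657g0020 and Nitab4.5_0004657g0030, which follow each other on 1 scaffold, were both higher in VBI-2. The first, Nitab4.5_0004657g0020, had 6.86, 7.15 and 6.44 TPM in stationary VBI-2, against 2.00, 3.00 and 2.21 TPM in stationary VBI-0 (1.33 ± 0.17). Exponential cells had 6.38, 6.23 and 5.79 TPM in VBI-2, against 1.89, 2.13 and 2.65 TPM in VBI-0 (1.36 ± 0.17). The second, Nitab4.5_0004657g0030, was called in exponential cells alone (1.06 ± 0.24 in exponential and 0.96 ± 0.24 in stationary cells), which does not show that the phases differ, and that call was lost without replicate 1 of exponential VBI-2 or replicate 2 of exponential VBI-0. In the BY pair the neighbours differed from each other. There Nitab4.5_0004657g0030 fell (-2.25 ± 0.41), whereas Nitab4.5_0004657g0020 had 5.26, 7.84 and 5.52 TPM in stationary BY-2H and 3.06, 3.93 and 2.48 TPM in BY-2 (log2 fold change 0.56 ± 0.29, adjusted p = 0.133). Exponential BY-2H had 7.11, 7.04 and 8.71 TPM of Nitab4.5_0004657g0020.

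**Figure D4:**
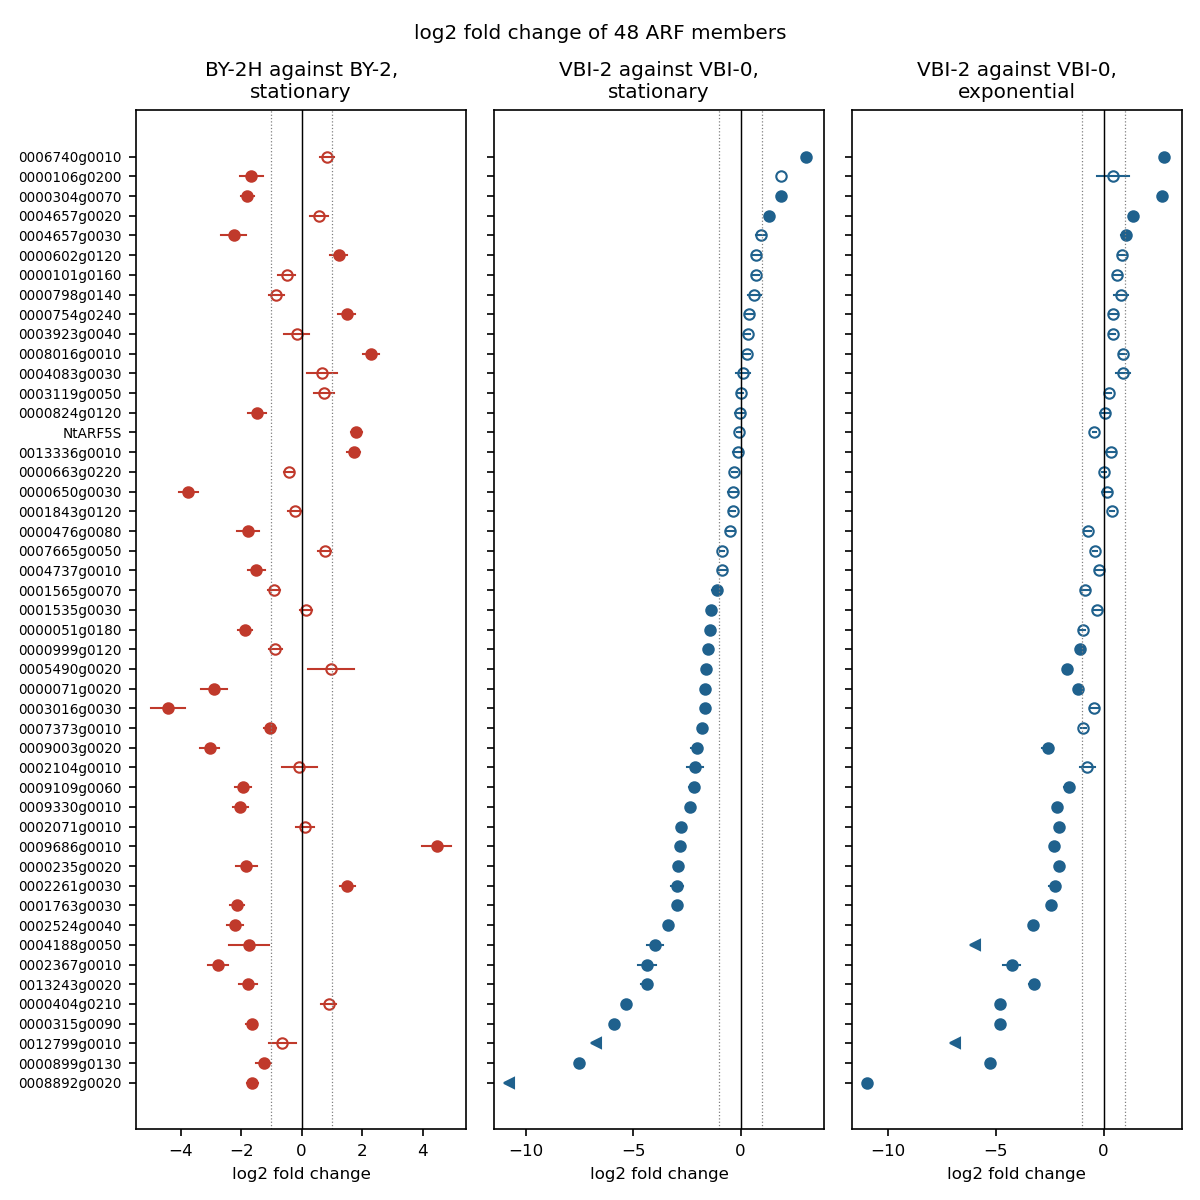
Log2 fold change (horizontal axis, bars ± SE) of the 48 tested ARF members (rows) for BY-2H over BY-2 in stationary cells, VBI-2 over VBI-0 in stationary cells and VBI-2 over VBI-0 in exponential cells. Filled symbols are called members, dotted lines mark log2 fold changes of -1 and 1, triangles are bounds for members without reads in VBI-2, symbols without a visible bar have a small SE or few reads, and points lie mostly to the left of 0 with 23, 26 and 20 members called lower.

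Across the 3 line comparisons, 40 of the 48 members were called at least once (83.3%, against 68.5% of the 45805 transcripts tested in both pairs) and 27 in at least 2 comparisons (56.2%, against 38.2%). Of these, 13 fell in all 3 comparisons (27.1%, against 5.02%) and none rose in all 3 with edgeR (0%, against 2.78%). The exponential and stationary VBI comparisons are not 2 independent lines, and the BY pair carries the changes of read type and stated age. The members that fell in every comparison included Nitab4.5_0009330g0010, Nitab4.5_0008892g0020, Nitab4.5_0000315g0090, Nitab4.5_0000899g0130, Nitab4.5_0002367g0010, Nitab4.5_0013243g0020 and Nitab4.5_0009003g0020. A further 3 members fell in BY-2H and in stationary VBI-2 only. The 8 members without a call in any line comparison included both transcripts of the pair Nitab4.5_0001843g0120 and Nitab4.5_0007665g0050.

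For a few members the habituated lines went in opposite directions relative to their dependent lines. Of the 7 members that rose in BY-2H, 2 fell in VBI-2 in both phases. The first was Nitab4.5_0009686g0010, with 1.55, 2.41 and 1.40 TPM in stationary VBI-2, against 11.5, 11.5 and 12.7 TPM in stationary VBI-0 (log2 fold change -2.84 ± 0.16). Its exponential levels were 1.67, 2.21 and 1.60 TPM in VBI-2, against 9.13, 7.84 and 9.13 TPM in VBI-0, and it had 8.70, 9.38 and 8.92 TPM in exponential BY-2H. BY-2 and VBI-2 were therefore the lines with low levels of this transcript. The second was Nitab4.5_0002261g0030, with 13.2, 10.05 and 8.94 TPM in stationary BY-2H, against 2.07, 2.59 and 3.38 TPM in BY-2 (1.51 ± 0.24). In stationary cells of the VBI pair it had 0.506, 0.228 and 0.341 TPM in VBI-2, against 2.22, 2.99 and 2.07 TPM in VBI-0 (-2.97 ± 0.28). Exponential cells had 0.600, 0.488 and 0.485 TPM in VBI-2, against 2.38, 2.14 and 2.49 TPM in VBI-0, and 6.98, 7.76 and 7.27 TPM in BY-2H. This transcript was thus higher in BY-2H than in every library of the other 3 lines. The reverse held for Nitab4.5_0000304g0070, which had 3.50, 2.57 and 3.44 TPM in stationary BY-2H, against 7.70, 7.55 and 11.3 TPM in BY-2 (-1.80 ± 0.22), and rose in VBI-2. It had 3.50, 3.87 and 3.82 TPM in exponential BY-2H. The transcript Nitab4.5_0004657g0030 also fell in BY-2H, with 0.387, 0.329 and 0.778 TPM in stationary BY-2H, against 1.497, 2.02 and 2.39 TPM in BY-2, and its call in VBI-2 was the one in exponential cells given above (3.396, 2.20 and 2.09 TPM in VBI-2, against 1.57, 0.835 and 1.27 TPM in VBI-0).

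The difference between the pairs was tested directly in stationary cells, in 1 fit of all 21 libraries, as a test added after the data had been seen. The pairs differed by 7.34 ± 0.40 log2 units for Nitab4.5_0009686g0010, 4.52 ± 0.33 for Nitab4.5_0002261g0030 and -3.64 ± 0.26 for Nitab4.5_0000304g0070 (SE), with adjusted p-values of 1.12e-13, 2.89e-11 and 2.53e-11. NtARF5S differed by 1.92 ± 0.16 (adjusted p = 1.64e-10). By the adjusted p alone, 37 of 48 members differed (77.1%, against 55.5% of 49980 transcripts). Of these, 25 (52.1%, against 29.6%) were higher in the BY difference than in the VBI difference, and 12 (25.0%, against 25.9%) were lower. Company, read type and stated age changed within the BY pair alone, so they and the pair cannot be told apart in this difference.

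Fewer members were called between growth phases than between lines. In VBI-0, 2 of 48 members were called in stationary against exponential cells (4.17%, against 4.45% of all transcripts tested). Both rose (against 1.97%), and none fell with edgeR (0%, against 2.49%), DESeq2 or limma. At an unadjusted p under 0.05, 2 members were lower, but the share of all transcripts at that limit was not computed. Stationary VBI-0 held 8.13, 9.08 and 7.49 TPM of Nitab4.5_0003016g0030, against 3.84, 3.03 and 3.43 TPM in exponential VBI-0 (log2 fold change 1.26 ± 0.18, adjusted p = 3.48e-05). The other member, Nitab4.5_0000235g0020, had 17.0, 19.2 and 15.6 TPM in stationary VBI-0, against 8.73, 7.25 and 7.60 TPM in exponential VBI-0 (1.15 ± 0.15). Without the fold change limit, 15 members were higher and 0 lower by the adjusted p alone, against 7.91% and 10.2% of all transcripts tested. The summed level was 460 ± 13.5 TPM in stationary and 387 ± 32.4 TPM in exponential VBI-0 (SD, n = 3 each), and 35 members had a higher mean. With limma on log2(TPM + 0.5), 2 members were called higher and 0 lower, against 960 and 630 of all 48440 transcripts tested. The share of higher calls over all transcripts was then 60.4% instead of 44.1%.

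In VBI-2, 3 of 48 members were called (6.25%, against 1.60%), of which 1 rose in stationary cells (2.08%, against 0.993%) and 2 fell (4.17%, against 0.603%), and each of these 3 had low levels. The rise was that of Nitab4.5_0004188g0050, with 11 reads in the 3 stationary libraries and none in the exponential ones, which is at least 3.74-fold higher. Its call was lost without replicate 1 or replicate 2 of exponential VBI-2 (adjusted p of 0.0602 and 0.0538). Stationary VBI-2 held 0.0452, 0.0427 and 0.0527 TPM of Nitab4.5_0000899g0130, against 0.211, 0.110 and 0.149 TPM in exponential VBI-2 (log2 fold change -1.86 ± 0.37, adjusted p = 0.00336), and without replicate 1 of exponential VBI-2 the adjusted p was 0.0652. The other member that fell was Nitab4.5_0013243g0020 (-1.54 ± 0.29). By the adjusted p alone, 1 member was higher (against 2.30%) and 3 were lower (against 2.72%). The summed level was 238 ± 11.3 TPM in stationary and 230 ± 23.3 TPM in exponential VBI-2.

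In BY-2H, 1 of 48 members was called (2.08%, against 2.68%). It rose in stationary cells (against 1.72%), and none fell with edgeR (0%, against 0.963%), DESeq2 or limma. At an unadjusted p under 0.05, 8 members were lower. The share of all transcripts at that limit was not computed, so nothing is read from this count. The member that rose, Nitab4.5_0002367g0010, had 1.41, 1.61 and 1.35 TPM in stationary BY-2H, against 0.397, 0.428 and 0.382 TPM in exponential BY-2H (log2 fold change 1.84 ± 0.34, adjusted p = 2.37e-06). In BY-2 it was higher still, at 4.30, 9.46 and 12.3 TPM, and in VBI-2 it was low. Stationary cells held 0, 0.0830 and 0.0803 TPM in VBI-2, against 1.13, 1.25 and 1.38 TPM in VBI-0, and exponential cells held 0.0492, 0.137 and 0.0912 TPM in VBI-2, against 1.87, 1.45 and 1.96 TPM in VBI-0, so that VBI-0 lay near stationary BY-2H. By the adjusted p alone, 6 members were higher in stationary BY-2H (against 5.88%) and 5 lower (against 4.55%). By TPM, the largest increase in stationary BY-2H was that of Nitab4.5_0008016g0010, whose log2 fold change of 0.70 ± 0.09 lay below the limit. For the family as a whole, the sum was 290 ± 15.4 TPM for stationary BY-2H cells, against 283 ± 4.26 TPM for exponential ones.

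Whether the difference between VBI-2 and VBI-0 itself depended on the phase was tested as an interaction, with the adjusted p alone, in the same 12 libraries as the line and phase comparisons. Of 48 members, 9 passed (18.8%, against 6.82% of all transcripts tested). The line difference was lower in stationary than in exponential cells for 8 (16.7%, against 2.82%) and higher for 1 (2.08%, against 4.00%). For 3 of the 8, the line difference was called in stationary cells alone. Stationary cells held 2.80, 3.70 and 2.00 TPM of Nitab4.5_0003016g0030 in VBI-2, against 8.13, 9.08 and 7.49 TPM in VBI-0. Exponential cells held 3.38, 2.28 and 2.20 TPM in VBI-2, against 3.84, 3.03 and 3.43 TPM in VBI-0. The log2 fold changes were -1.68 ± 0.18 and -0.46 ± 0.19, and the interaction was -1.22 ± 0.26 (adjusted p = 0.00699). In VBI-2 itself the phases overlapped for this transcript, and in VBI-0 they did not.

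The second member, Nitab4.5_0007373g0010, had 9.23, 8.72 and 6.24 TPM in stationary VBI-2, against 25.0, 25.0 and 23.05 TPM in stationary VBI-0. Its exponential levels were 8.90, 7.75 and 8.31 TPM in VBI-2, against 14.9, 13.7 and 15.9 TPM in VBI-0. Its interaction was -0.84 ± 0.16 (adjusted p = 0.00212), and in the Bright Yellow lines it measured 4.56, 3.53 and 4.71 TPM in stationary BY-2H, 6.6003, 6.63 and 6.82 TPM in BY-2 and 4.87, 5.21 and 4.95 TPM in exponential BY-2H. The third member was Nitab4.5_0001535g0030, with 1.62, 1.90 and 2.36 TPM in stationary VBI-2, against 4.26, 4.88 and 5.25 TPM in stationary VBI-0. Exponential cells had 3.11, 4.14 and 2.60 TPM in VBI-2, which overlapped the 3.38, 3.82 and 4.83 TPM of VBI-0 (interaction -1.08 ± 0.25, adjusted p = 0.0103). With limma on log2(TPM + 0.5) the interactions of Nitab4.5_0003016g0030, Nitab4.5_0007373g0010 and Nitab4.5_0001535g0030 were -1.07, -0.76 and -0.85, of the same sign and somewhat smaller, with adjusted p-values of 0.0725, 0.0672 and 0.100. On that scale 1 member in all passed, Nitab4.5_0000315g0090. Over all transcripts, 58.7% of interaction calls were higher in the fit of reads, 40.7% with limma on log2(TPM + 0.5) and 69.1% when all 21 libraries were fitted together.

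**Figure D5:**
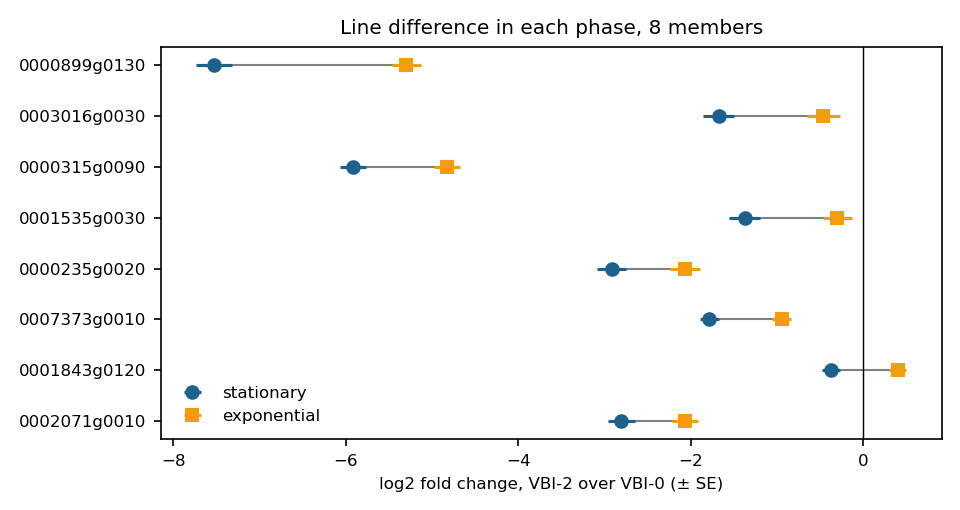
Log2 fold change of VBI-2 over VBI-0 (horizontal axis, bars ± SE) in stationary cells (circles) and exponential cells (squares) for the 8 ARF members with a lower line difference in stationary cells. The circle lies to the left of the square in each row, and Nitab4.5_0001843g0120 is the only row in which the points lie on different sides of 0.

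For 4 pairs of members, both transcripts of a pair share 1 RefSeq accession in the study's annotation. Salmon can divide reads between such transcripts in more than 1 way, so their separate values are uncertain and the sum of each pair is given too. The pair Nitab4.5_0001843g0120 and Nitab4.5_0007665g0050 was the most abundant. In stationary cells of the VBI pair, Nitab4.5_0001843g0120 had 12.5, 12.3 and 11.3 TPM in VBI-2, against 14.8, 14.6 and 14.0 TPM in VBI-0, and Nitab4.5_0007665g0050 had 16.0, 17.7 and 15.4 TPM in VBI-2, against 27.2, 28.1 and 26.8 TPM in VBI-0. The sum was 28.4 ± 1.63 TPM in stationary VBI-2 and 41.8 ± 0.931 TPM in stationary VBI-0 (SD, n = 3 each). In exponential cells Nitab4.5_0001843g0120 had 16.1, 13.1 and 14.1 TPM in VBI-2, against 9.40, 11.2 and 11.8 TPM in VBI-0, and Nitab4.5_0007665g0050 had 17.8, 15.8 and 14.3 TPM in VBI-2, against 23.7, 18.1 and 20.5 TPM in VBI-0. Their sums of 30.4 ± 3.07 TPM in VBI-2 and 31.6 ± 1.97 TPM in VBI-0 overlapped. In stationary cells of the BY pair Nitab4.5_0001843g0120 had 12.9, 13.6 and 12.1 TPM in BY-2H and 14.7, 8.40 and 14.9 TPM in BY-2, and Nitab4.5_0007665g0050 had 13.7, 13.7 and 11.2 TPM in BY-2H and 7.40, 4.10 and 7.23 TPM in BY-2. Exponential BY-2H had 11.3, 10.4 and 10.0 TPM of Nitab4.5_0001843g0120 and 10.6, 10.9 and 11.9 TPM of Nitab4.5_0007665g0050. Their sum was 25.7 ± 2.15 TPM in stationary BY-2H and 18.9 ± 5.55 TPM in BY-2. The share of Nitab4.5_0001843g0120 in the pair was 50.05% for stationary BY-2H cells and 67.0% for BY-2, and 42.4% in stationary VBI-2 and 34.6% in stationary VBI-0.

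In the pair Nitab4.5_0000899g0130 and Nitab4.5_0001535g0030, both transcripts were lower in stationary VBI-2 than in stationary VBI-0. The sum was 2.01 ± 0.381 TPM in stationary VBI-2 and 12.4 ± 0.615 TPM in stationary VBI-0, and 3.44 ± 0.760 TPM in exponential VBI-2 and 9.89 ± 1.55 TPM in exponential VBI-0. The first transcript made up 2.34% of the sum in stationary VBI-2 and 61.3% in stationary VBI-0, so the loss was unequal. In exponential cells Nitab4.5_0000899g0130 measured 5.49, 5.30 and 6.84 TPM in VBI-0. In the BY pair the sums had nearly the same mean, 13.3 ± 1.05 TPM in stationary BY-2H and 13.3 ± 2.37 TPM in BY-2 (SD, n = 3 each). The first transcript made up 27.7% of the sum for BY-2H cells at this phase, against 48.98% for BY-2. There Nitab4.5_0000899g0130 had 3.84, 3.73 and 3.45 TPM in stationary BY-2H and 6.18, 8.39 and 4.93 TPM in BY-2, and Nitab4.5_0001535g0030 had 10.0, 10.2 and 8.60 TPM in stationary BY-2H and 6.43, 7.51 and 6.38 TPM in BY-2. Exponential BY-2H had 3.82, 2.64 and 4.07 TPM of Nitab4.5_0000899g0130 and 10.4, 9.68 and 10.4 TPM of Nitab4.5_0001535g0030.

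In the pair Nitab4.5_0000754g0240 and Nitab4.5_0012799g0010, the second transcript was the one without reads in VBI-2, and the first was present there. Stationary cells held 3.63, 2.96 and 3.10 TPM of Nitab4.5_0000754g0240 in VBI-2, against 2.01, 1.57 and 2.25 TPM in VBI-0, and exponential cells 3.45, 3.22 and 2.99 TPM in VBI-2, against 1.93, 2.02 and 2.00 TPM in VBI-0. The sum of the pair was 3.23 ± 0.353 TPM in stationary VBI-2 and 4.11 ± 0.595 TPM in stationary VBI-0. These sums overlapped, with a highest VBI-2 library of 3.63 TPM and a lowest VBI-0 library of 3.56 TPM. In exponential cells the sum was 3.22 ± 0.228 TPM in VBI-2 and 4.38 ± 0.210 TPM in VBI-0, without overlap. In BY-2H Nitab4.5_0000754g0240 rose, with 5.09, 5.62 and 4.90 TPM in stationary BY-2H, against 0.963, 1.21 and 2.11 TPM in BY-2 (log2 fold change 1.49 ± 0.28), and it had 5.45, 4.83 and 5.81 TPM in exponential BY-2H. The sum of the pair was 6.18 ± 0.567 TPM in stationary BY-2H and 2.61 ± 1.34 TPM in BY-2.

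In the pair Nitab4.5_0000106g0200 and Nitab4.5_0004083g0030, the first transcript was higher in every library of the Bright Yellow lines than in any of the VBI lines. Those lines differ in medium as well as cultivar, and no test was made between them. It had 7.83, 9.47 and 7.42 TPM in stationary BY-2H, against 13.9, 10.13 and 40.3 TPM in BY-2, where replicate 3 was well above the other 2, and 10.8, 10.5 and 11.0 TPM in exponential BY-2H. In the VBI lines it stayed below 0.25 TPM, with 0.249, 0.104 and 0.0583 TPM in stationary VBI-2 and 0, 0 and 0.0822 TPM in stationary VBI-0, and 0.0837, 0.182 and 0.238 TPM in exponential VBI-2 and 0.144, 0.0851 and 0.112 TPM in exponential VBI-0. Its fall in BY-2H (log2 fold change -1.67 ± 0.38, adjusted p = 0.00376) was not called with limma on log2(TPM + 0.5) or log2(TPM + 1). The second transcript, Nitab4.5_0004083g0030, had 1.65, 1.33 and 0.723 TPM in stationary BY-2H, 0.380, 0.493 and 0.817 TPM in BY-2, 1.05, 1.81 and 1.08 TPM in stationary VBI-2 and 0.747, 1.64 and 1.08 TPM in stationary VBI-0. In exponential cells it had 1.62, 1.58 and 1.07 TPM in BY-2H, 2.25, 1.52 and 1.98 TPM in VBI-2 and 0.666, 1.15 and 0.767 TPM in VBI-0. It was called in none of the line comparisons. The sum of this pair was 9.48, 10.8 and 8.14 TPM in stationary BY-2H, against 14.3, 10.6 and 41.1 TPM in BY-2. These sums overlapped, although the libraries of the first transcript did not. In stationary cells of the VBI pair the sum was 1.45 ± 0.407 TPM in VBI-2 and 1.18 ± 0.446 TPM in VBI-0. It was 2.09 ± 0.339 TPM in exponential VBI-2 and 0.974 ± 0.227 TPM in exponential VBI-0.

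The upstream part of the pathway was described from the AUX/IAA and TIR1/AFB classes of the same study. AUX/IAA transcripts encode the repressors that bind ARFs, and their genes are themselves known targets of auxin in Arabidopsis. Of 47 AUX/IAA transcripts tested in the VBI pair, 4 rose (8.51%, against 17.7% of all transcripts tested) and 39 fell (83.0%, against 22.3%) in stationary VBI-2. In exponential VBI-2, 4 rose (8.51%, against 17.1%) and 36 fell (76.6%, against 21.5%). The median log2 fold change in stationary cells was -1.40 for the ARF members and -4.25 for the AUX/IAA transcripts, and in exponential cells it was -0.74 for the ARF members and -2.99 for the AUX/IAA transcripts. In BY-2H, 6 of 42 AUX/IAA transcripts rose (14.3%, against 20.3%) and 20 fell (47.6%, against 22.8%), and the median was -0.89 for the ARF members and -1.07 for the AUX/IAA transcripts. The summed AUX/IAA level was 431 ± 51.8 TPM in stationary VBI-2, against 4637 ± 240 TPM in stationary VBI-0, and 1613 ± 35.3 TPM in stationary BY-2H, against 1994 ± 345 TPM in BY-2. Of 13 transcripts of the TIR1/AFB receptors tested, 3 rose (23.1%, against 20.3%) and 2 fell (15.4%, against 22.8%) in BY-2H, shares near those of all transcripts. Their median log2 fold change was 0.47, within a range of -3.88 to 6.97, and 8 of the 13 were not called. The summed level of the class was 1381 ± 26.6 TPM in stationary BY-2H, against 86.6 ± 18.6 TPM in BY-2. In stationary cells of the VBI pair the receptor sum was 159 ± 6.97 TPM in VBI-2 and 152 ± 4.03 TPM in VBI-0, with 2 of 13 transcripts called higher (15.4%, against 17.7%) and 3 lower (23.1%, against 22.3%). In exponential cells it was 168 ± 12.2 TPM in VBI-2 and 116 ± 6.28 TPM in VBI-0, without overlap. There 2 of 13 transcripts were called higher (15.4%, against 17.1%) and 0 lower (0%, against 21.5%).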

How the data were processed

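All 21 RNA-seq libraries (4 tobacco suspension lines) were used. The authors quantified reads with Salmon (version 1.3.0 per the submitters' processing notes, which also list Trimmomatic) against the Nitab4.5 cDNA set, and the methods name Rcorrector and Trim Galore. As deposited, each library held an estimated count of reads per transcript (read pairs in BY-2H) without scaling between libraries. The TPM values, as deposited by the authors, are scaled for length and to a fixed total per library. Reads that fit several transcripts are shared among them by Salmon.

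Members were the 49 transcripts in the ARF class of the study's annotation, and the members, lists and tests were chosen with earlier results of these data known. Transcripts above a mean of 0.5 TPM in at least 1 group were tested. Estimated counts were rounded and tested with the edgeR quasi-likelihood test (edgeR 4.0.16, R 4.3.3, TMM factors), with Benjamini-Hochberg adjustment over all transcripts tested. Stationary BY-2H and BY-2 were fitted alone, as were the BY-2H phases, and the 12 VBI libraries together. Calls required adjusted p-values up to 0.05 and log2 fold changes of 1 or more in size, except that the interaction and the pair difference needed the adjusted p alone. Fold changes carry their SE. A group without reads was set to a floor of 3 reads over the group. Intervals and floors cover counting error only. The code was tested on simulated data.

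Every library's values are given for NtARF5S, for the 3 highest members of each group, for the 3 largest changes in each direction of each line comparison, for the largest change in each direction of each phase comparison, for interactions with a call in 1 phase alone or opposite calls, for transcripts that share an accession or lack reads in a line, and for 1 on the NtTIR1T scaffold. Of 45 RefSeq accessions paired with the members, 32 (34 members) matched the RefSeq gene table, which gave no product names that were used here. Alternatives were DESeq2 1.42.0, limma 3.58.1 on log2(TPM + 0.5) and log2(TPM + 1), other size factors and filters, an effective length offset, a fit of all libraries, no fold change limit, a replicate block and leaving out each library.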

Additional observations from a re-analysis of the deposited data

Results flagged for a closer look

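The line difference between VBI-2 and VBI-0 differed between the phases for 9 members, by the interaction term of the edgeR fit. The interaction, stationary minus exponential, was -2.23 log2 units for Nitab4.5_0000899g0130, -1.22 for Nitab4.5_0003016g0030, -1.09 for Nitab4.5_0000315g0090, -1.08 for Nitab4.5_0001535g0030, -0.85 for Nitab4.5_0000235g0020, -0.84 for Nitab4.5_0007373g0010, -0.77 for Nitab4.5_0001843g0120 and -0.74 for Nitab4.5_0002071g0010. It was 4.94 for Nitab4.5_0004188g0050, a fitted value that rests on 11 reads in stationary and none in exponential VBI-2 and is no bound. Of these 9 members, Nitab4.5_0000315g0090 alone passed under each of the 21 alternatives run for it, while Nitab4.5_0000235g0020 and Nitab4.5_0002071g0010 passed under 9 of 21.

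Relative to their dependent lines, BY-2H and VBI-2 moved in opposite directions in stationary cells for 3 members, and the difference between the pairs passed a test added after the data had been seen. It was 7.34 log2 units for Nitab4.5_0009686g0010, 4.52 for Nitab4.5_0002261g0030 and -3.64 for Nitab4.5_0000304g0070, as the BY difference minus the VBI difference. Groups of 3 libraries were too small for a test of single outlying libraries.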

How the results depend on the processing

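The alternatives were followed for 27 results on single members, mostly the largest changes of each comparison, a choice that favours keeping a call. Of 563 such values, 543 kept their direction and side of the threshold. No called member changed sign. For NtARF5S in stationary VBI cells, where no difference was called, the slightly negative log2 fold change became 7.70e-05 with an effective length offset, 0.0469 with limma on log2(TPM + 0.5) and 0.0465 with limma on log2(TPM + 1). Calls kept under every alternative numbered 20 of 30 in the BY pair, 25 of 29 in stationary and 20 of 24 in exponential cells of the VBI pair, 1 of 9 for the interaction, 2 of 2 for the VBI-0 phases, 0 of 3 for the VBI-2 phases and 0 of 1 for the BY-2H phases.

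With limma the BY pair had 11 members higher at a pseudocount of 0.5 (11804 of all 47271 transcripts) and 13 lower at 1 (6480 of all). The interaction was left with 0 members higher at a pseudocount of 0.5 or 1 (624 or 774 of all 48440 transcripts) and 1 or 2 lower (908 or 1191). The VBI-2 phases were left with 0 higher (335 or 294 of all) and 0 lower (154 or 115). At a pseudocount of 1 the BY-2H phases had 0 higher (389 of all 44765). A larger pseudocount shrinks the fold changes of low members by construction. DESeq2, edgeR with RLE factors, the filter of edgeR and the effective length offset each gave 2 higher interactions, and the fit of all 21 libraries gave 0 higher and 5 lower, and 0 higher for the VBI-2 phases. Without the fold change limit, 12 members were higher in exponential VBI-2 (against 29.2% of all transcripts) and 8 in stationary VBI-2 (29.7%). Between phases, 15 were higher in stationary VBI-0 (7.91%), and 6 higher (5.88%) and 5 lower (4.55%) in stationary BY-2H. The cause of the other shifts was not tested.

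When each library was left out in turn, the stationary VBI pair had 3 to 5 higher members, with 5 without VBI-0 stationary replicate 3. The interaction had 0 to 2 higher and 6 to 10 lower, the VBI-0 phases 0 to 1 lower (1 without VBI-0 stationary replicate 3), and the VBI-2 phases 0 to 1 higher and 1 to 2 lower. The interactions of Nitab4.5_0000235g0020 and Nitab4.5_0002071g0010 were each lost under 12 of 21 alternatives.

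Summed as TMM-scaled CPM, the family's ratio was 0.726 for BY-2H over BY-2, 0.427 for stationary and 0.514 for exponential VBI-2 over VBI-0. Without NtARF5S the stationary VBI ratio was 0.453. The leading member of BY-2 ranked 2 in 1 library.

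Deviations of libraries with the same replicate number correlated between -0.0572 and 0.0801. No pairing by number was seen, but deviations from means of 3 libraries cannot exclude one. With a replicate block, 7 members were higher and 22 lower in the BY pair, 4 and 26 in stationary and 4 and 20 in exponential VBI cells, and the interaction gave 1 higher and 9 lower. At this depth, members with a few reads, such as Nitab4.5_0004188g0050 and Nitab4.5_0003016g0030 in BY-2H, are measured poorly, and 3 libraries per group limit small fold changes.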
